A study of Mus musculus with 9 samples.

Results

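The cathepsins described here are 8 lysosomal protease genes, Ctsa, Ctsb, Ctsc, Ctsd, Ctsh, Ctsl, Ctss and Ctsz, taken by symbol from the 24411 gene rows of each library. All 8 passed the filter on low counts. RNA was sequenced from primary microglia, the resident macrophages of the brain, of 3-day-old ICR mice, an outbred stock with no engineered allele named in the labels. Mixed glia from whole brains were kept for about a fortnight, and microglia were shaken off, plated for 24 h and treated for 4 h. The R848 group (3 libraries) received 1 µM R848, also called resiquimod, a synthetic agonist of Toll-like receptor 7 in mice. The IFN-α group (3 libraries) received 100 U/ml recombinant mouse IFN-α, a type I interferon, and the R848+IFN-α group (3 libraries) received both at those doses. A control mentioned by the series' design is not analysed here, so each value below compares stimulated cells with other stimulated cells. Nothing in the labels ties replicates to separate cultures, animals or litters, and the p-values therefore cover the spread between libraries alone, part of which may be technical.

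Cathepsins are made as inactive precursors, carried to endosomes and lysosomes mostly on mannose-6-phosphate tags, and activated there at low pH by removal of a propeptide. Cathepsin D is an aspartic endopeptidase, cathepsins B, L and S are cysteine endopeptidases, cathepsins C, H and Z are cysteine exopeptidases that trim chain ends, and cathepsin A is a serine carboxypeptidase. In macrophages and microglia they degrade engulfed protein, trim the invariant chain of class II molecules, and cleave the ectodomains of endosomal Toll-like receptors, which include the receptor for R848. Cystatins and stefins are tight-binding inhibitors of the cysteine cathepsins.

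Reverse-strand counts assigned to genes ran from 2505941 to 6005578 per library, and the 8 cathepsins held 1.54% to 3.25% of them. The ribosomal transcript Rn45s held 13.3% to 26.1% of gene counts. Normalised levels are given in CPM, counts set to a common library size with totals scaled by TMM, a trimmed mean of log ratios that sets the bulk of genes level. Scaling by library totals alone moved the median gene by -0.39 on the log2 scale between R848+IFN-α and R848 and by -0.31 between R848+IFN-α and IFN-α, and several counts below for the combined group are given under that scaling too. Of the 15 microglial markers listed, Cx3cr1 averaged 205, 108 and 143 CPM in the R848, IFN-α and R848+IFN-α groups, lowest under IFN-α. P2ry12 averaged 2.41, 40.8 and 9.12 CPM and Tmem119 3.81, 2.87 and 0.39 CPM in the same groups, and Csf1r 148, 149.9 and 98.2 CPM. Within the R848 group, replicate 1 was the highest library for Ctsa, Ctsb, Ctsd and Ctsz and the lowest for Ctsc, Ctsh, Ctsl and Ctss.

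The upstream sequences of 4 members are shown first, each holding a match to one of the short motifs searched. Ctsl and Ctsz, which are not shown, held a match too, and any link between a motif and a response was not tested. The sequences shown are the 250 bases before the RefSeq start site on GRCm38.p6, 5′ to 3′ on the gene's strand. Capitals mark only the motif named below for each gene. The table used had windows for 6 of the 8 members, and not for Ctsb or Ctsh. Ctsa had a second window, chr2:164832622-164832921, in which no E-box was found. The annotated start of the gene, 164832873, lies within that second window. The window shown was picked because the bases at its start site matched an annotated Ctsa transcript. For Ctss (chr3:95526536-95526785, plus strand) the capitals mark the interferon-stimulated response element core GAAANNGAAA, which began 21 bases before the start. For Ctsc (chr7:88277835-88278084, plus strand) they mark the STAT element TTCNNNGAA, 236 bases before it. For Ctsd (chr7:142387828-142388077, minus strand) and Ctsa (chr2:164833523-164833772, plus strand) they mark the E-box CACGTG, the core of the element bound by the lysosomal regulator TFEB.
Ctss: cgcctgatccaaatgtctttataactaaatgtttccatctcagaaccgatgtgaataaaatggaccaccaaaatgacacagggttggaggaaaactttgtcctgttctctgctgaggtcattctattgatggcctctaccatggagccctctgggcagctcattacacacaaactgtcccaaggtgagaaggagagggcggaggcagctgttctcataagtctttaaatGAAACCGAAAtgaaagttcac
Ctsc: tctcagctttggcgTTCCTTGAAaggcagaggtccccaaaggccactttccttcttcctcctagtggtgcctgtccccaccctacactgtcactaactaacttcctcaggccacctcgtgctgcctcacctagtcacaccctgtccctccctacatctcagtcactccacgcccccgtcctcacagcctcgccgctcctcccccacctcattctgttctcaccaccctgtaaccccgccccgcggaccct
Ctsd: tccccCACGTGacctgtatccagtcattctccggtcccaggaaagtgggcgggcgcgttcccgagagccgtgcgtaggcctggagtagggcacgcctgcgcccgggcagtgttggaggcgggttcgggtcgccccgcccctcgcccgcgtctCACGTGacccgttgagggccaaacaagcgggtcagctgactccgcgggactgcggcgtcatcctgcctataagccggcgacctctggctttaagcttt
Ctsa: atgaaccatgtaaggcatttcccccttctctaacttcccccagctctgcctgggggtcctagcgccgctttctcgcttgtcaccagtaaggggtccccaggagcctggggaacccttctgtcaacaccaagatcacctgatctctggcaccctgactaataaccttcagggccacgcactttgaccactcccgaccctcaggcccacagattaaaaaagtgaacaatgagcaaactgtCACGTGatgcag

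Motifs were searched on both strands of the full windows, which run from 250 bases before to 50 after the start. GAAANNGAAA was found in the Ctss window alone among 7 member windows, and in 3.44% of all 32851 windows and 3.29% of the 10828 windows of tested genes. The longer E-box TCACGTGA, which contains CACGTG, was found in Ctsa and Ctsd, against 0.974% of all windows and 1.89% of those of tested genes. The shorter CACGTG was found in Ctsa, Ctsd and Ctsl, against 7.15% and 9.99%. Ctsd held 2 copies, 245 and 98 bases before the start, and Ctsa held 1 copy 12 bases before it and 1 just after it. TTCNNNGAA was found in Ctsc, against 8.30% of all windows and 6.945% of those of tested genes. The NF-κB element GGGNNNTTCC was found in Ctsz, against 5.555% and 6.225%, and the PU.1 element GAGGAAGT in Ctsc and Ctss, against 3.20% and 3.25%. The PU.1 match of Ctsc lies on the other strand within the sequence shown, where it is in lower case. A match describes these letters and is not a measured binding site.

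Divided by the length of all annotated exons of each gene (GENCODE, GRCm38), Ctsd was the most abundant cathepsin transcript in all 3 groups. Its level was 3636 ± 244 CPM per kilobase (SD, n = 3) under R848, 5510.0 ± 471 under IFN-α and 2903 ± 200.4 under R848+IFN-α. Ctsb followed with 1121 ± 85.6, 1567 ± 56.3 and 1306 ± 70.5 CPM per kilobase, and Ctss with 1019 ± 90.4, 1864 ± 38.4 and 1400 ± 79.3. The ranges of Ctsb and Ctss overlapped under R848 and under R848+IFN-α. Compared within each library, Ctss was above Ctsb in every IFN-α and every R848+IFN-α library, and the R848 libraries differed in this order. Ctsa, Ctsc, Ctsl, Ctsz and Ctsh made up the lower tier, between 33.7 and 228 CPM per kilobase. Ctsh was the lowest in each group on this length, but with the longest principal transcript Ctsb stood above Ctss in every library and Ctsz or Ctsl had the lowest group mean, so the order within each tier depends on the length used.

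**Figure D1:**
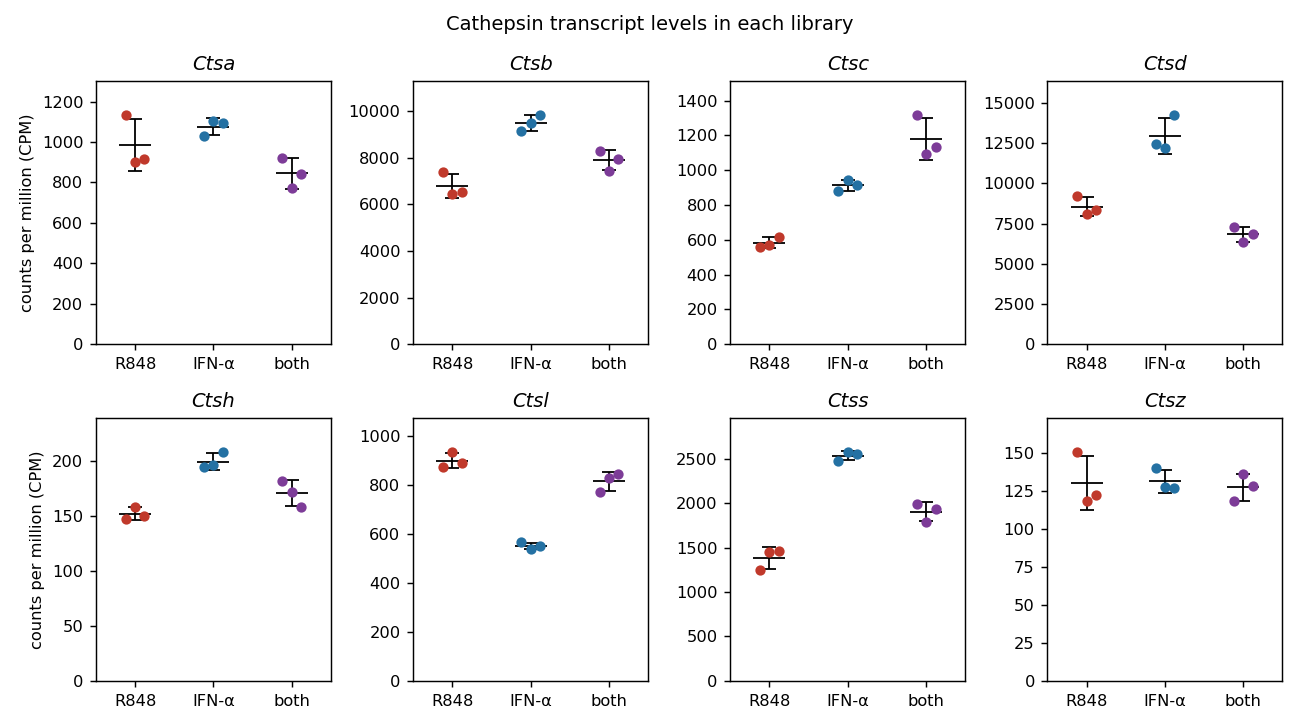
Normalised level in CPM (vertical axes, each from 0) of the 8 cathepsins in each of 3 libraries treated with R848, IFN-α or both. Dots are libraries and bars are the mean ± SD. Ctss, Ctsb and Ctsd are highest under IFN-α, Ctsl is lowest there, Ctsc is highest under both agents, and the Ctsz groups overlap.

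Of the 8 cathepsins, 7 showed a difference between any of the groups (edgeR's quasi-likelihood test, Benjamini-Hochberg adjusted p under 0.05 over 11002 genes), where 50.3% of all genes tested did. Ctsz, a carboxypeptidase, was the exception (adjusted p = 0.929), and on library totals alone all 8 were called. The 7 did not share a pattern. Ctsb, Ctsd, Ctsh and Ctss were at their highest under IFN-α alone, Ctsl at its lowest there, and Ctsc at its highest under the combination. In bulk RNA, fewer cells of a type and less RNA per cell cannot be told apart.

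Between the single agents, 1 cathepsin was higher under R848 than under IFN-α (18.4% of all genes were) and 5 were lower (19% of all genes were). Ctsl was the one called higher, and Ctss, Ctsc, Ctsd, Ctsb and Ctsh were called lower. The median log2 difference was -0.44 over the 8 members and 0.024 over all genes, and the median size without sign was 0.54 against 0.36. Adding IFN-α to R848 left 3 cathepsins higher than under R848 alone (19.2% of all genes) and 1 lower (16.7%), namely Ctsc, Ctss and Ctsb higher and Ctsd lower. This split was 2 higher and 3 lower with upper-quartile scaling, and 1 higher (Ctsc) and 4 lower (Ctsa, Ctsd, Ctsl and Ctsz) on library totals alone. With TMM scaling, the median difference of the combination from R848 was 0.063 over the members and -0.033 over all genes.

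With R848 added to IFN-α, 2 cathepsins were higher than under IFN-α alone (18.5% of all genes) and 4 were lower (14.7%). Ctsl and Ctsc were higher, Ctsd, Ctss, Ctsa and Ctsb were lower, and the median difference was -0.25 over the members and -0.0088 over all genes. On library totals alone edgeR called 0 higher (1 at an unadjusted p under 0.05) and 6 lower, and with upper-quartile scaling 2 higher and 5 lower. Against both single agents at once, Ctsc was the 1 cathepsin higher under the combination (7.33% of all genes) and Ctsd the 1 lower (2.82%). These comparisons share libraries, so they are not independent of each other.

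**Figure D2:**
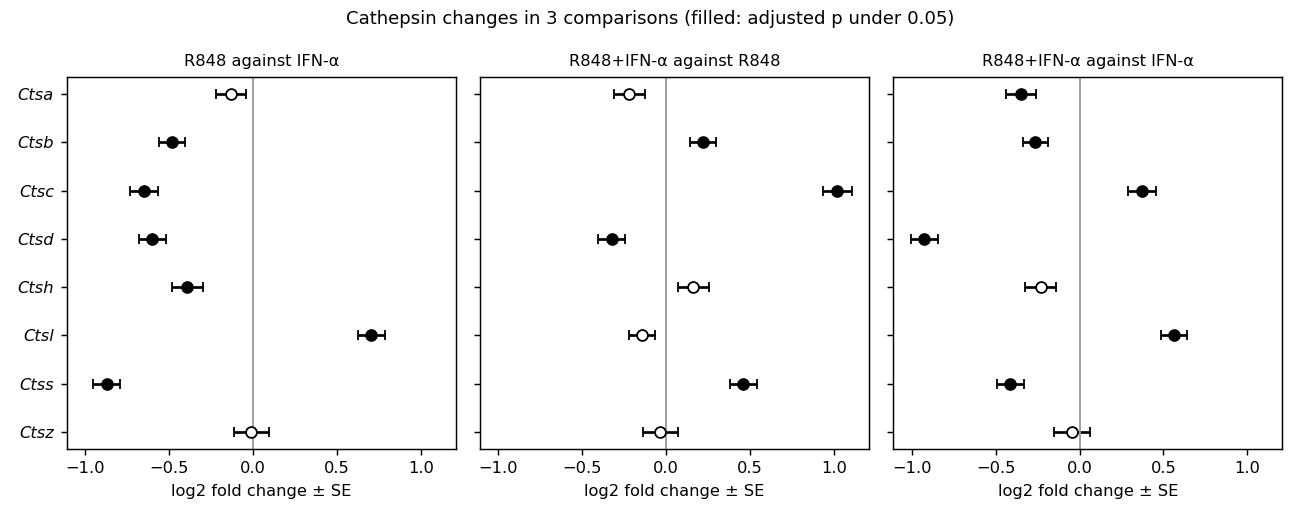
Log2 fold change ± SE (horizontal axes) of each cathepsin in 3 comparisons, the first group named minus the second. Filled points passed the adjusted p threshold of 0.05. Ctsl lies right of 0 where R848 or the combination is set against IFN-α, Ctsc lies right of 0 in both comparisons of the combination, and Ctsd lies left of 0 in all 3.

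Ctsd encodes cathepsin D, the main aspartic protease of the lysosome, on chromosome 7 from 142375911 to 142388038 on the minus strand. It measured 9193, 8092 and 8359 CPM in the R848 libraries, 12454, 12186 and 14222 CPM under IFN-α, and 7299, 6357 and 6818 CPM under both agents. The 3 groups did not overlap, and the combined libraries were the lowest. Ctsd was 1.90-fold lower under the combination than under IFN-α (log2 fold change -0.92 ± 0.0808 SE, edgeR adjusted p = 9.65e-11). It was also lower than under R848, with a log2 fold change of -0.32 ± 0.0802 (adjusted p = 0.00182), and R848 was below IFN-α with -0.60 ± 0.0804 (adjusted p = 2.98e-07). Being lower than under both single agents (adjusted p = 0.00595) was no longer called without R848+IFN-α replicate 2 (adjusted p = 0.0600). Gm49369, a gene model without a gene row of its own, shares 6757 bases with Ctsd on the same strand. Pseudogenes without a row likewise share bases on the same strand with Ctss (Hmgb1-ps5, 557 bases) and Ctsl (Gm49230, 395 bases).

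Ctsb encodes cathepsin B, an endopeptidase that can also clip dipeptides from chain ends, on chromosome 14 from 63122462 to 63145923. It measured 7379, 6439.9 and 6530.5 CPM under R848, 9143, 9488 and 9824 CPM under IFN-α, and 8304, 7455 and 7955 CPM under both. The combined libraries lay between the single-agent ranges without touching them. R848 was below IFN-α by a log2 fold change of -0.48 ± 0.0765 (edgeR adjusted p = 4.96e-06), and the combination was below IFN-α by -0.26 ± 0.0764 (adjusted p = 0.00794). The second call was lost without R848+IFN-α replicate 2 (adjusted p = 0.0554). The combination exceeded R848 by 0.22 ± 0.0764 (adjusted p = 0.0239), a call that was lost with upper-quartile scaling (0.086, adjusted p = 0.363), in a fit of these groups alone (adjusted p = 0.0573) and on leaving out R848 replicate 2 or 3 or R848+IFN-α replicate 1 or 3 (adjusted p = 0.114, 0.0896, 0.0791 and 0.0741). On library totals alone its sign turned to -0.16 (adjusted p = 0.272), where the median gene stood at -0.42.

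Ctss encodes cathepsin S, which stays active near neutral pH and trims the invariant chain in antigen-presenting cells, on chromosome 3 from 95526786 to 95556403. Its upstream sequence is the one with the GAAANNGAAA match. It measured 1243, 1449 and 1462 CPM under R848, 2473, 2574 and 2548 CPM under IFN-α, and 1992, 1782 and 1928 CPM under both. All 3 groups were apart, with the combination in the middle. R848 was 1.83-fold below IFN-α (log2 fold change -0.87 ± 0.0808, edgeR adjusted p = 2.00e-10), the largest difference between the single agents among the 8 members. The combination exceeded R848 by 0.46 ± 0.0805 (adjusted p = 3.33e-05) and was below IFN-α by -0.41 ± 0.0803 (adjusted p = 0.000133). On library totals alone the first of these was 0.065 (adjusted p = 0.691), 0.49 above the median gene.

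Ctsl encodes cathepsin L, an endopeptidase of broad specificity, on chromosome 13 from 64359337 to 64370890 on the minus strand. It measured 875, 935 and 890.3 CPM under R848, 566, 538 and 552 CPM under IFN-α, and 772, 828 and 846 CPM under both. Every library that had received R848 was above every IFN-α library, which is the reverse of the order for Ctss. R848 exceeded IFN-α 1.63-fold (log2 fold change 0.71 ± 0.0789, edgeR adjusted p = 9.54e-09) and the combination exceeded IFN-α by 0.56 ± 0.079 (adjusted p = 1.05e-06). The latter was not called on library totals alone (0.25, adjusted p = 0.0957). The combined libraries were all below the R848 libraries, but the difference of -0.14 ± 0.0781 was not called (adjusted p = 0.160), although it was with upper-quartile scaling (-0.28, adjusted p = 0.00467) and library totals (-0.54, adjusted p = 0.000358).

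Ctsc encodes cathepsin C, or dipeptidyl peptidase I, which activates granule serine proteases by removing a dipeptide, on chromosome 7 from 88278085 to 88310888. It measured 559, 569.8 and 619 CPM under R848, 880.45, 942 and 917 CPM under IFN-α, and 1315.5, 1091 and 1135 CPM under both. The ranges did not overlap, with R848 the lowest and the combination the highest. The combination exceeded R848 2.03-fold (log2 fold change 1.02 ± 0.0846, edgeR adjusted p = 2.36e-11), the largest difference of any member in any comparison under TMM scaling. It exceeded IFN-α by 0.37 ± 0.0836 (adjusted p = 0.000779), and R848 was below IFN-α by -0.65 ± 0.0844 (adjusted p = 1.75e-07). Being higher than under both single agents (adjusted p = 0.0025) was not called on library totals alone, where the excess over IFN-α was 0.061 (adjusted p = 0.734), 0.38 above the median gene.

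Ctsh encodes cathepsin H, an aminopeptidase, on chromosome 9 from 90054152 to 90076089. It measured 147, 158 and 149.9 CPM under R848, 194, 196 and 208 CPM under IFN-α, and 181, 171 and 158 CPM under both. The IFN-α libraries were the highest, and the other groups overlapped. R848 was below IFN-α by a log2 fold change of -0.39 ± 0.0926 (edgeR adjusted p = 0.000947), which was not called on library totals alone (adjusted p = 0.0622). The combination differed from IFN-α by -0.23 ± 0.0925 (adjusted p = 0.0539), which was not called, although it was in several other settings, such as a minimum count of 50 (adjusted p = 0.0163). Its difference from R848 was 0.16 ± 0.093 (adjusted p = 0.184), or -0.23 on library totals alone (adjusted p = 0.149).

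Ctsa encodes cathepsin A, also known as protective protein because it stabilises the sialidase Neu1 and β-galactosidase, on chromosome 2 from 164832873 to 164841032. It measured 1132, 902 and 918 CPM under R848, 1028, 1106 and 1095 CPM under IFN-α, and 921, 771 and 844 CPM under both. The R848 libraries overlapped both other groups: R848 replicate 1 was above every IFN-α library, and R848+IFN-α replicate 1 was above R848 replicates 2 and 3. The combination was below IFN-α by a log2 fold change of -0.35 ± 0.0902 (edgeR adjusted p = 0.00306). R848 differed from IFN-α by -0.13 ± 0.0899 (adjusted p = 0.283), but without R848 replicate 1 the difference was -0.26 and called (adjusted p = 0.00449). The combination differed from R848 by -0.22 ± 0.0901 (adjusted p = 0.0576), and by -0.35 with upper-quartile scaling (adjusted p = 0.00186).

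Ctsz encodes cathepsin Z, a carboxypeptidase that removes single residues, on chromosome 2 from 174427493 to 174439039 on the minus strand. It measured 151, 118 and 122 CPM under R848, 140.2, 127 and 127 CPM under IFN-α, and 118, 136 and 128 CPM under both. All 3 groups overlapped, and R848 replicate 1 was the highest of the 9 libraries. The log2 fold changes were -0.0091 ± 0.105 for R848 against IFN-α (edgeR adjusted p = 0.959), -0.034 ± 0.104 for the combination against R848 (adjusted p = 0.831) and -0.044 ± 0.106 for the combination against IFN-α (adjusted p = 0.796). Scaled by library totals alone, Ctsz was called lower under the combination than under R848 (-0.42, adjusted p = 0.00628) and IFN-α (-0.35, adjusted p = 0.0273), where the median gene stood at -0.42 and -0.32.

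Summed over the 8 genes, cathepsin transcripts amounted to 19465 ± 1069 CPM (SD, n = 3) under R848, 27842 ± 1435 CPM under IFN-α and 19768 ± 1157 CPM under both. These sums rest on TMM scaling. As a share of all gene counts the cathepsins held 2.09% to 2.21%, 2.55% to 3.25% and 1.54% to 1.86%. By that share the combined libraries all lay below the R848 libraries. Ctsb and Ctsd together held 78.7 ± 1.24%, 80.6 ± 0.881% and 74.5 ± 0.187% of the cathepsin counts in those groups. The Ctsd to Ctsb ratio of counts was 1.26 ± 0.0175, 1.36 ± 0.0817 and 0.863 ± 0.0141. Ctsb counts, not divided by gene length, thus exceeded Ctsd counts in the combined libraries and in no other. Per kilobase of exon, Ctsd stayed above Ctsb in the combined group as well, at 2903 against 1306 CPM. The Ctss to Ctsl ratio was 1.54 ± 0.111, 4.59 ± 0.205 and 2.34 ± 0.220, and no group overlapped another. Such ratios within a library do not depend on the scaling between libraries. Ctsc counts came to 0.0684 ± 0.00684, 0.0708 ± 0.00638 and 0.173 ± 0.00695 of the Ctsd counts, with the single-agent groups overlapping and the combined group above both. Over the 9 libraries, which fall into the 3 treatment groups, log2 CPM of Ctsb and Ctsl had a Pearson r of -0.93 and Ctsh and Ctss one of 0.93, given as a description.

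**Figure D3:**
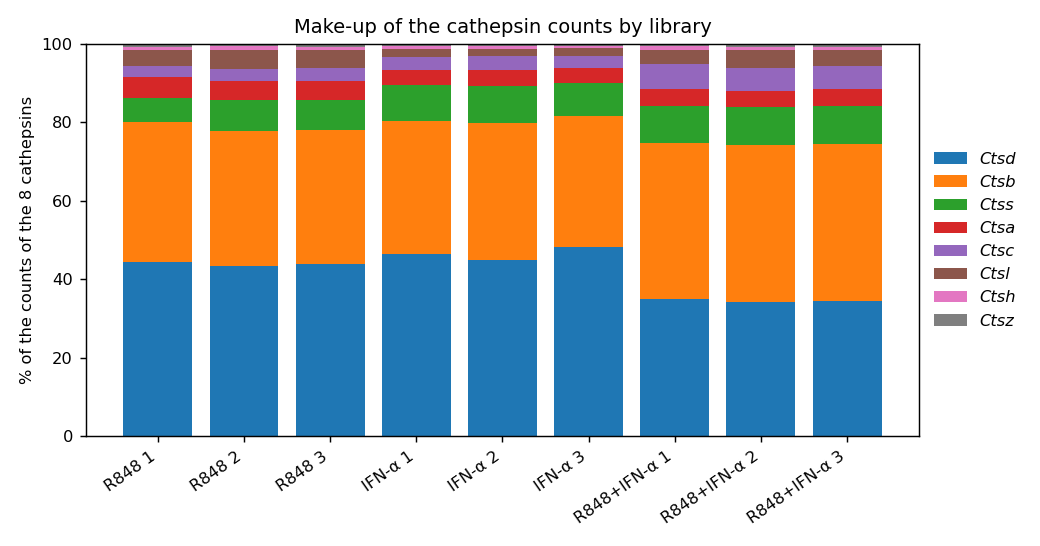
Share of each cathepsin (stacked bars, percent) in the summed counts of the 8 cathepsins in each of the 9 libraries, which are named by treatment and replicate. The Ctsd segment is smaller in the R848+IFN-α libraries, where Ctsb and Ctsd together make up 74.5% on average.

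Of 15 other cathepsin genes, 11 were too low to test, of which 6 had no counts in any library. Ctse, an aspartic protease of endosomes, averaged 32.9, 73.7 and 39.6 CPM under R848, IFN-α and both. It was lower under R848 than IFN-α (log2 fold change -1.16 ± 0.128, edgeR adjusted p = 7.41e-09) and lower under both than IFN-α (-0.89 ± 0.126, adjusted p = 1.22e-06). Ctso, a little-studied cysteine cathepsin, was lower under R848 than IFN-α (-0.51 ± 0.127, adjusted p = 0.00182). Ctsf and Ctsk were tested and not called in any comparison, with group means of 16.8 to 20.7 CPM and 6.59 to 7.08 CPM. Ctsk, the bone-matrix collagenase, lies 17424 bases from Ctss.

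The cathepsin inhibitors were tested for 8 of 25 listed genes. Against R848, 4 were higher under the combination and 0 lower by edgeR (1 lower at an unadjusted p under 0.05, and 0 called by DESeq2). Of all genes, 19.2% were higher and 16.7% lower there. Against IFN-α, 4 were higher and 1 lower (18.5% and 14.7% of all genes). The split against IFN-α was 1 higher and 2 lower on library totals alone. Cst7 encodes cystatin F, an inhibitor that acts inside endosomes and targets cathepsin C. It averaged 9.96, 24.3 and 35.6 CPM under R848, IFN-α and both, and the combination exceeded R848 by a log2 fold change of 1.84 ± 0.181 (edgeR adjusted p = 9.07e-10) and IFN-α by 0.56 ± 0.161 (adjusted p = 0.00707). The excess over IFN-α was not called without R848+IFN-α replicate 3 (adjusted p = 0.0501) or on library totals alone (adjusted p = 0.245). Cst7 had the same order of groups as Ctsc.

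Cstb, or stefin B, a cytosolic inhibitor, averaged 377, 275 and 334 CPM, the same order of groups as Ctsl. Its R848 level exceeded IFN-α by a log2 fold change of 0.46 ± 0.086 (edgeR adjusted p = 6.47e-05). Serpinb9, a granzyme B inhibitor, averaged 18.8, 39.9 and 60.8 CPM, and the combination exceeded R848 by 1.71 ± 0.158 (adjusted p = 2.48e-10). Its excess over IFN-α of 0.62 ± 0.146 (adjusted p = 0.00117) was not called on library totals alone (0.30, adjusted p = 0.127). Serpina3g, a serpin reported to inhibit cathepsins, went from 1.87 CPM under R848 and 108 CPM under IFN-α to 542 CPM under both. Members of the Serpina3 cluster are near-identical copies, so its counts are uncertain. Ctla2b, related to cathepsin propeptides, averaged 59.5, 299 and 132 CPM and was lower under R848 than IFN-α (-2.33 ± 0.102, adjusted p = 3.21e-18), and it has a close paralogue in Ctla2a. Cst3, or cystatin C, Serpinb6a and Ctla2a were not called by edgeR in any comparison, and Cst3 averaged 911, 1031 and 1026 CPM.

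Among processing partners and other lysosomal proteases, 0 of 14 tested genes were higher by edgeR (0 also at an unadjusted p under 0.05 and by DESeq2) and 9 lower under R848 than IFN-α (18.4% and 19% of all genes). Under the combination, 6 were higher and 2 lower than R848 (19.2% and 16.7% of all genes). Against IFN-α, 1 was higher and 9 lower under the combination (18.5% and 14.7% of all genes). On library totals alone these splits were 2 higher and 5 lower against R848, and 0 higher by edgeR (0 also at an unadjusted p under 0.05) and 12 lower against IFN-α. Lgmn, the asparaginyl endopeptidase legumain that processes several cathepsin precursors, averaged 336, 679 and 423 CPM under R848, IFN-α and both. It was lower under R848 than IFN-α (log2 fold change -1.01 ± 0.0861, edgeR adjusted p = 2.85e-11). Its excess of 0.33 ± 0.0862 under the combination over R848 (adjusted p = 0.0031) was not called with upper-quartile scaling (adjusted p = 0.0633) and turned to -0.057 on library totals. Grn, the progranulin precursor whose granulin peptides bind cathepsin D, averaged 62.8, 170.3 and 163 CPM. Neu1, the sialidase held in a complex with cathepsin A, averaged 78.5, 80.0 and 42.5 CPM, and the combination was lower than R848 (-0.89 ± 0.127, adjusted p = 1.24e-06) and IFN-α (-0.92 ± 0.129, adjusted p = 1.13e-06). Sppl2a, an intramembrane protease that clears invariant chain remnants, averaged 350, 607 and 765 CPM, the same order of group means as Ctsc. It was the 1 gene called higher than under IFN-α (0.33 ± 0.0852, adjusted p = 0.00259), which was lost on library totals alone (0.022, adjusted p = 0.909).

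The lysosomal hydrolases of lipid and sugar counted 4 higher and 16 lower of 28 under R848 against IFN-α, and 2 higher and 20 lower under the combination against IFN-α. Of all genes tested, 18.4% were higher and 19% lower in the first comparison, and 18.5% and 14.7% in the second. Pla2g15, the lysosomal phospholipase A2, averaged 17.4, 84.1 and 14.35 CPM under R848, IFN-α and both. Acp5, a tartrate-resistant acid phosphatase, went the other way with 53.5, 3.53 and 14.9 CPM. Lysosomal membrane and transport genes counted 5 higher and 12 lower of 24 between the single agents. Mcoln2, an endolysosomal cation channel, averaged 65.5, 7.56 and 74.1 CPM, and Slc15a3, an endolysosomal peptide and histidine transporter, 737, 658 and 1589 CPM. The vacuolar ATPase, the proton pump that acidifies lysosomes, had 3 of 18 subunit genes higher and 7 lower between the single agents. Under the combination against R848, 4 were higher and 6 lower (1 and 12 on library totals alone), where 19.2% and 16.7% of all genes were. Atp6v1d averaged 82.1, 180.0 and 123 CPM, while Atp6v1e1 averaged 393.5, 192 and 329.9 CPM, so subunits of the same pump differed in opposite directions.

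**Figure D4:**
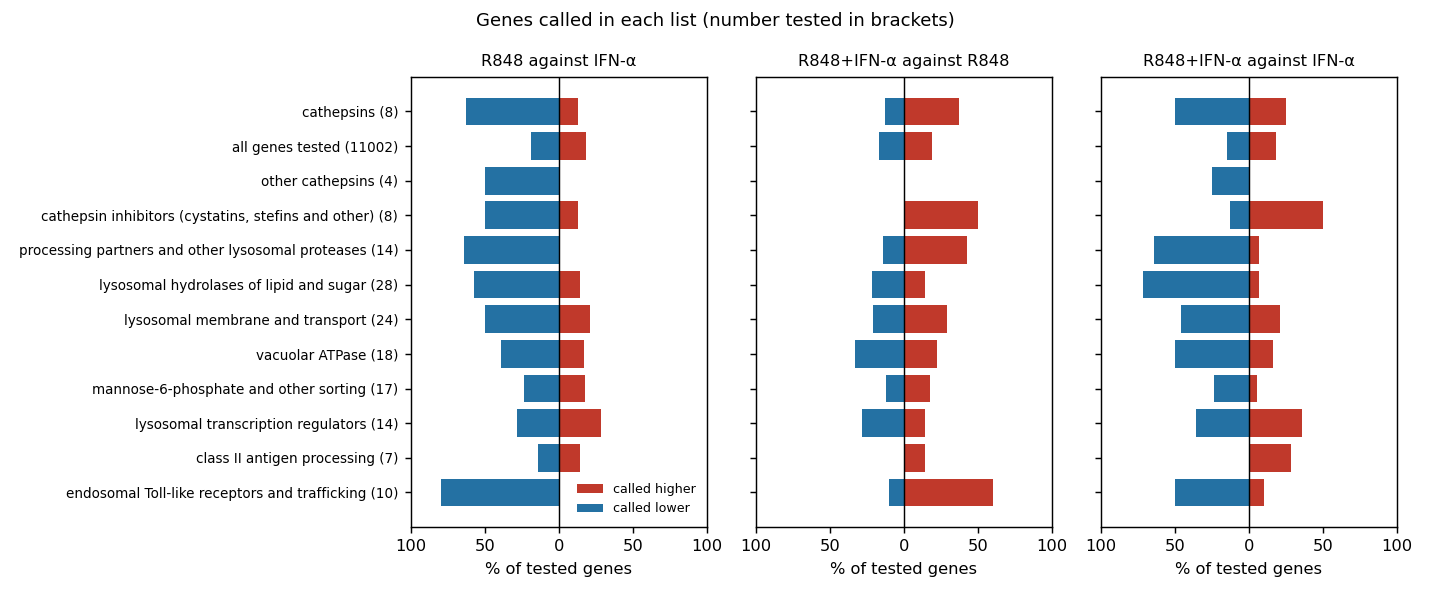
Percent of the tested genes of each list (number tested in brackets) called higher (right, red) or lower (left, blue) in 3 comparisons, with all 11002 tested genes for reference. In the left panel 5 of 8 cathepsins, 16 of 28 hydrolases and 8 of 10 genes of endosomal Toll-like receptors and their trafficking are lower under R848 than IFN-α.

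Of the mannose-6-phosphate and other sorting genes, 3 of 17 were higher and 4 lower under R848 than IFN-α, where 18.4% and 19% of all genes were. Gnptab, a subunit of the enzyme that starts the mannose-6-phosphate tag, averaged 82.3, 181 and 114 CPM under R848, IFN-α and both. The lysosomal transcription regulators split 4 higher and 4 lower of 14. Mitf and Tfec, relatives of TFEB, averaged 174, 47.5 and 131 CPM and 77.2, 10.8 and 22.9 CPM, both highest under R848. Irf8, a myeloid factor, averaged 48.0, 152 and 413 CPM, and Spi1, which encodes PU.1, averaged 429, 157 and 367.5 CPM. Class II antigen processing had 7 of 13 genes tested, and Cd74, the invariant chain that cathepsin S trims, was low at 9.91, 1.91 and 9.63 CPM. Among endosomal Toll-like receptors and their trafficking factors, 0 of 10 were higher by edgeR (0 also at an unadjusted p under 0.05 and by DESeq2) and 8 lower under R848 than IFN-α. Under the combination against R848, 6 were higher and 1 lower (4 and 3 on library totals alone), where 19.2% and 16.7% of all genes were. Tlr7, the receptor for R848, averaged 113.5, 617 and 624 CPM.

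For each cathepsin called in at least 2 pairwise comparisons, the genes with the most similar pattern were sought by Pearson r of log2 CPM over the 9 libraries, among 9456 genes. The points share 3 treatment groups, and many genes reach high values. Ctsc was most like B2m (r = 0.993), the light chain of class I molecules, then Rbms2 and C3ar1, and 194 genes exceeded 0.95. Ctss was most like Atp6v1d (r = 0.994), then Tomm70a and Osbpl8. Ctsb was most like Slc10a7 (r = 0.993), then the complement gene C1qc and Zfp710, and 45 genes exceeded 0.95. Ctsd was most like Trf (r = 0.987), which encodes transferrin, then Cdk19 and B4galt1. Ctsl was most like the copper transporter gene Slc31a2 (r = 0.990), then Fpr1 and Acpp.

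Markers of other cells moved between the groups as well. The summed level of 11 astrocyte markers ran from 1449.5 to 1710.1 CPM under R848, from 1153 to 1455 under IFN-α and from 2387 to 3436 under the combination. Of 10 tested, 9 were called higher under the combination than R848 (19.2% of all genes were). Against IFN-α, 5 were called higher under the combination (18.5% of all genes were) and 5 were not called. Under R848 against IFN-α, 2 were called higher and 3 lower (18.4% and 19% of all genes), so the sum does not stand for each marker. The largest levels in the sum were those of Gfap, at 897, 749.6 and 1418 CPM under R848, IFN-α and both, and Aqp4, at 494, 280 and 1048 CPM. The 15 microglial markers summed to between 3642 and 3936, between 5689.5 and 6177, and between 4060.5 and 4467 CPM, highest under IFN-α, as were the summed cathepsins. The markers did not all go that way: 1 (Cx3cr1) was called higher and 9 lower under R848 than IFN-α (18.4% and 19% of all genes). The summed 10 oligodendrocyte markers ran from 498 to 531, from 642 to 757 and from 559.8 to 606 CPM. Endothelial markers summed to at most 66.6 CPM, with Emcn at 0 in all libraries, and those of neutrophils and blood monocytes to at most 16.8 CPM, with S100a9, Mpo, Elane and Ngp at 0. The part of any of these cells in the cathepsin differences was not tested.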

How the data were processed

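The authors deposited raw gene counts (unstranded, forward and reverse strand) for each of 9 libraries. Per the submitters' processing notes, CASAVA 1.8.2, Trimmomatic 0.33, STAR 2.5.1 and DESeq2 were used with mm10. For the gene annotation that was counted against, a name is not given in the sources at hand. Reverse-strand counts were used, since forward-strand counts made up 1.09% to 1.50% of both strands. Rows naming no gene were left out, and reads in no gene were 39.3% to 44.4% of read pairs. STAR counts no multi-mapping reads.

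Genes were filtered with filterByExpr (minimum count 10, total 15), scaled by TMM and fitted together in edgeR 4.0.16 (R 4.3.3, robust quasi-likelihood, tested on simulated data). SE is the absolute log2 fold change over the square root of F, so it is approximate. Being above or below both single agents was tested with the larger of both p-values where signs matched. The named genes are the 8 members, up to 5 called genes per list, every tested relative and inhibitor, and the most similar genes. Members and lists were chosen with earlier results of these data known. The length by principal transcript was added after seeing the data.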

Additional observations from a re-analysis of the deposited data

Results flagged for a closer look

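The forward-strand column, which no comparison above uses, held counts for every cathepsin, and no untreated libraries were at hand to set a background. Over the 9 libraries these came to 349 for Ctsa, 686 for Ctsb, 104 for Ctsc, 978 for Ctsd, 25 for Ctsh, 96 for Ctsl, 264 for Ctss and 40 for Ctsz. Each is above the limit of 3 counts that a count of 0 allows. That limit takes no account of the forward-strand share of all genes, so passing it does not set the cathepsins apart. The forward-strand counts made up from 0.300% (Ctsb) to 1.25% (Ctsa) of a member's counts on both strands. The share over all genes in each library is given with the processing above. Every member but Ctsa lay below the lowest of those library shares, and Ctsa lay within their range. By annotation, 5 members overlap genes on the other strand: Ctsa (share 1.25%) shares 584 bases with Neurl2 and 1515 with Pltp, Ctsz (1.07%) shares 10 with Nelfcd, Ctsl (0.437%) 1971 with Gm47123, Ctsc (0.410%) 4743 with Gm26522, and Ctsb (0.300%) 774 with Fdft1. The part of these genes in these counts was not tested.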

How the results depend on the processing

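Over 10 settings with all libraries, 236 results of single cathepsins kept their direction and their side of the threshold, 13 gained a call, 7 lost one and 4 changed sign. Leaving out 1 library at a time, 215 were kept, 6 gained, 6 lost and 7 changed sign, 6 or 7 cathepsins were called among the 3 groups, and 1 to 2 were called against both single agents (1 without R848+IFN-α replicate 2). On library totals alone, 6157 genes were called for R848+IFN-α against R848 (3947 with TMM) and 2084 against both single agents (1116). The share of called genes that were higher fell there from 53.5% to 19.1% against R848 and from 55.7% to 21.7% against IFN-α. With upper-quartile factors these shares were 37.5% and 44.8%. For R848 against IFN-α the share was 49.1%, or 55.7% on totals. Signs turned on totals for Ctsb (-0.16), Ctsh (-0.23) and Lgmn (-0.057) in R848+IFN-α against R848, for Cstb (-0.027) in R848+IFN-α against IFN-α, and for Ctsz in R848 against IFN-α (0.067, or 0.041 with upper-quartile factors). Leaving out 1 library, Ctsz ran from -0.14 to 0.057 for R848 against IFN-α, from -0.099 to 0.094 for R848+IFN-α against R848 and from -0.085 to 0.0067 for R848+IFN-α against IFN-α. Causes were not tested. Deviations from the group mean had r of -0.118 to 0.086 between libraries of the same replicate number and -0.107 to 0.0882 between others. With 3 libraries per group, these values cannot show whether libraries of the same number shared a culture or batch. With a replicate block 6, 4 and 6 cathepsins were called in the 3 pairwise comparisons, as without it. Ctsz and Ctsh had the fewest counts, 315 to 784 per library, and their SE of 0.0925 to 0.106 were the largest of the members.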
